A study of Homo sapiens with 10 samples.

Results

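The 10 genes described here handle iron or set a cell's exposure to ferroptosis. They are TFRC, SLC11A2, SLC40A1, FTH1, FTL, NCOA4, IREB2, HMOX1, ACSL4 and GPX4, and they were taken by symbol from the 46427 genes of the deposited table. Each symbol matched 1 row, and all 10 genes passed the filter on low counts in every comparison below. Poly(A) RNA of 10 cultures of H460 and A549 cells, both established human lung cancer lines, was sequenced. Parental H460 cells were grown in 2D culture in RPMI medium with serum and gave 3 libraries. Drug-resistant H460 cells were those still attached after 3 days in drug, 3 days in fresh medium and re-plating, and they gave 1 library of cisplatin-resistant (CR, 4 µM), 2 of paclitaxel-resistant (PR, 5 nM) and 1 of doxorubicin-resistant (DR, 0.5 µM) cells. Tumor spheroid (TS) cells, which the sample labels call CTC, were passaged on a coating that prevents attachment, in medium that held B27 and the growth factors bFGF and EGF in place of serum, and they gave 1 library for each line beside 1 library of A549 cells in 2D culture. The TS groups therefore differ from 2D culture in attachment and in medium together, and nothing in the labels says that replicate libraries came from separate cultures, so p-values measure the spread between these libraries, which may be technical.

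Iron enters most cells bound to transferrin through the transferrin receptor TFRC, is moved out of the endosome by SLC11A2 (DMT1), is stored in shells of the ferritin chains FTH1 and FTL, and leaves through SLC40A1 (ferroportin). NCOA4 carries ferritin to the lysosome, HMOX1 frees iron from heme, and IREB2 encodes IRP2, an iron regulatory protein that binds hairpins called iron responsive elements when iron is scarce. Bound in a 5′ UTR such a hairpin blocks translation, and bound in the 3′ UTR of TFRC it protects the messenger RNA from decay. Ferroptosis is a form of cell death driven by iron-dependent peroxidation of phospholipids, which ACSL4 favours by activating polyunsaturated fatty acids and which GPX4 opposes by reducing the lipid peroxides. RNA levels, the quantity measured here, do not show the translational part of this control.

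The hairpins are shown because they are the letters in these messages through which the iron regulatory proteins are known to act. SLC11A2 also has a known iron responsive element in the 3′ UTR of some of its transcripts, which the motif used here did not match. A search of GENCODE 29 transcripts on GRCh38, transcript strand only, for a C, 5 bases and then the loop CAGTGN with N other than G, followed by 5 bases that pair with the 5 before the loop (G-T pairs allowed), matched 4 of the 10 genes. Each sequence is 29 bases, 5′ to 3′, with the bulged C and the loop of 6 bases in capitals. Those of FTH1 (chr11:61967574-61967602, minus strand), FTL (chr19:48965335-48965363, plus strand) and SLC40A1 (chr2:189580661-189580689, minus strand) lie in the 5′ UTR. The 4 matches in TFRC lie in its 3′ UTR on the minus strand of chromosome 3, at chr3:196050979-196051007, chr3:196050575-196050603, chr3:196050510-196050538 and chr3:196050463-196050491 in transcript order. First to last orders these matches only, and an element of TFRC that departs from the motif would be missed.
FTH1: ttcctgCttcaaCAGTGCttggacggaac
FTL: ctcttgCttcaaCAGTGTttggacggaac
SLC40A1: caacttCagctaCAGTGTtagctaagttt
TFRC first: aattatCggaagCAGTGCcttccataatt
TFRC second: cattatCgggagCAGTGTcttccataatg
TFRC next: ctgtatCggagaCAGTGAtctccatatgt
TFRC last: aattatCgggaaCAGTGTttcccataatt
The FTH1 and FTL lines carry the same upper stem, and the SLC40A1 line carries another. Of 19669 genes searched, 0.132% matched in a 5′ UTR and 0.529% in a 3′ UTR. A match is a description of the letters, and the absence of one in the other 6 genes says only that this motif as written is not in their GENCODE 29 UTRs.

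The total read count per library was between 59499787 and 89541774, with a median of 71656787, and the smallest count of any of the 10 genes was 276, for SLC40A1 in TS H460 cells. Epithelial markers (EPCAM, CDH1, KRT7, KRT8, KRT18 and KRT19) summed to an FPKM of 717.5 to 7549 per library, although EPCAM and CDH1 stayed at or under 0.114 in the H460 libraries. The 4 fibroblast markers summed to 3.81 to 28.2, the 6 lung differentiation markers and the 3 endothelial markers each stayed under an FPKM of 1, and of 4 blood markers only LYZ in TS A549 cells passed 1. The summed FPKM of 7 proliferation markers was 380.4 to 604 in parental libraries and 106.9 to 166.4 in drug-resistant libraries. It was 466.2 in TS H460, 606.5 in 2D A549 and 344.8 in TS A549 cells. Between 21036 and 21603 genes had a count in parental libraries against 22720 in CR, 25781 and 26133 in PR and 26745 in DR cells. The library names in the labels take 2 forms, plain for parental 1, parental 3, PR 1 and the TS and A549 libraries, and with a further hyphen for parental 2, CR, PR 2 and DR. What the forms mark is not given in the sources used here, and the main results are given within them.

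In drug-resistant H460 cells, SLC40A1 was higher and IREB2, TFRC and ACSL4 were lower than in parental cells. The ferritin chains, NCOA4, SLC11A2, HMOX1 and GPX4 did not pass the test. The calls of SLC40A1 and IREB2 held in each of 16 alternative analyses, that of TFRC in 12 and that of ACSL4 in 7. The question of this comparison is which genes differ in cells that survive the drugs, and it set the 4 drug-resistant against the 3 parental libraries with the quasi-likelihood test of edgeR on the read counts, adjusted over 18398 genes with a threshold of 0.05. Of the 10 genes, 4 were called (1 higher and 3 lower), beside 33.8% of all genes tested (18.4% higher and 15.4% lower), so the count is near the background. The median log2 fold change was 0.04 over the 10 genes and 0.06 over all genes tested. Because whole cultures were sequenced, fewer cells that use a gene and less RNA per cell cannot be told apart. Levels below are deposited FPKM, which are per transcript length, and fold changes are from the counts.

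**Figure D1:**
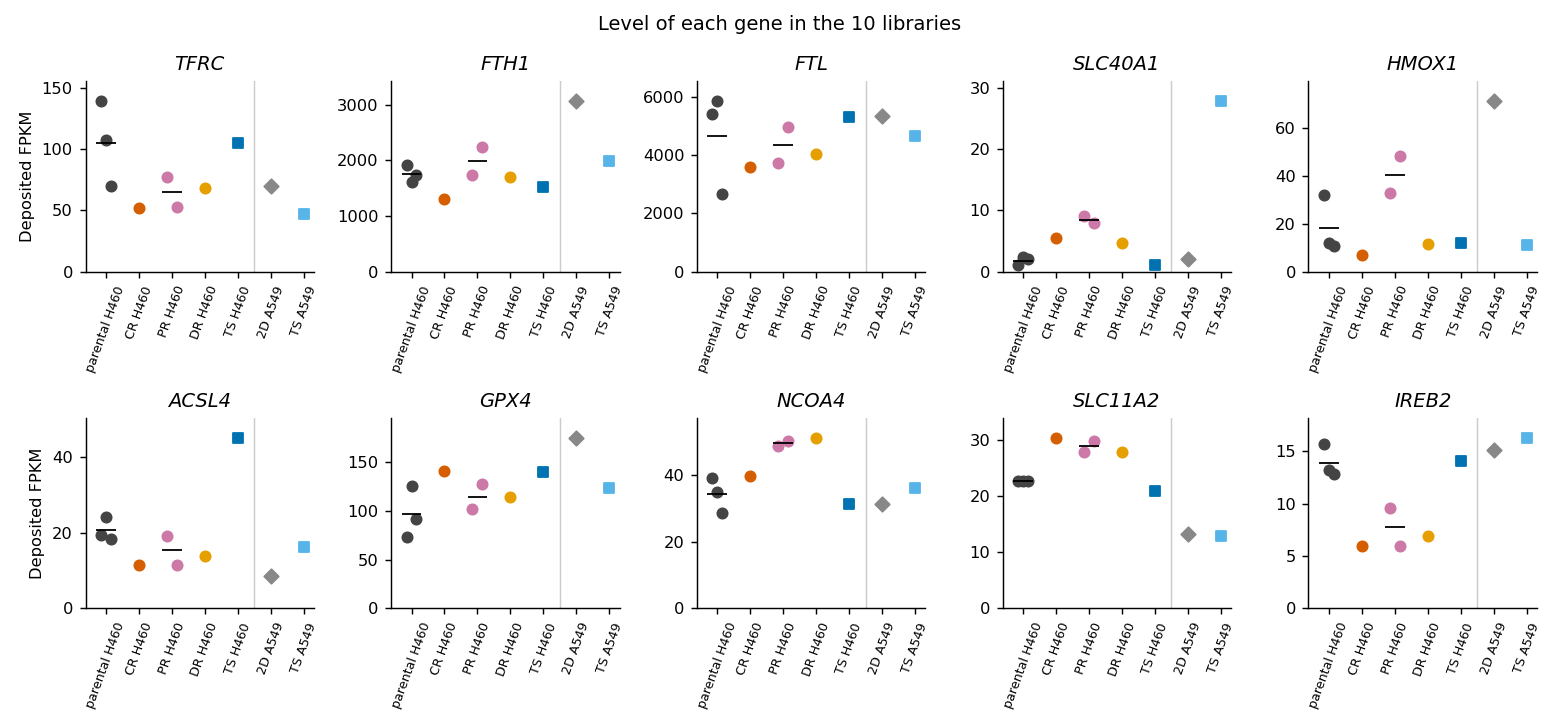
Deposited FPKM (linear axes from 0, 1 panel per gene) in each of the 10 libraries by group; each point is 1 library, horizontal lines are group means where a group has more than 1 library, and the grey line parts H460 from A549 libraries. SLC40A1 reaches 27.8 in TS A549 cells, and IREB2 lies below every parental library in all 4 drug-resistant libraries.

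SLC40A1 (chr2:189560590-189580786, minus strand, RefSeq positions on GRCh38.p14 here and for the genes below) encodes the only known cellular iron exporter. Its FPKM was 1.03, 2.32 and 2.02 in parental cells, 5.45 in CR, 9.01 and 7.93 in PR and 4.72 in DR cells. Each drug-resistant library lay above every parental one, as for 25.8% of all genes tested, and the PR libraries were highest. The parental mean was 1.79 ± 0.68 (SD, n = 3) and the drug-resistant mean 6.78 ± 2.02 (SD, n = 4), and the log2 fold change of the counts was 1.79 (SE 0.31, adjusted p = 0.001987, edgeR). The gene was called in each of 16 alternative analyses, with log2 fold changes of 1.47 to 1.95. Within the plain form of library name the log2 difference of FPKM + 1 was 2.02 (1 drug-resistant against 2 parental libraries), and within the hyphen form it was 1.06 (3 against 1).

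TFRC (chr3:196049284-196082090, minus strand), the transferrin receptor, had an FPKM of 139, 107 and 69.9 in parental cells, 51.8 in CR, 77.5 and 52.6 in PR and 68.0 in DR cells. CR, PR 2 and DR lay below every parental library, and PR 1 lay above parental 3, so the groups overlapped. The means were 105 ± 34.6 (SD, n = 3) and 62.5 ± 12.5 (SD, n = 4). The counts fell by 0.86 on the log2 scale (SE 0.25, adjusted p = 0.02348, edgeR). That call was lost without parental 1 (adjusted p = 0.09438), parental 2 (0.05802) or PR 2 (0.06766) and with the form of library name as a covariate (0.05991), all in edgeR. Within the forms of library name the log2 difference of FPKM + 1 was -0.34 (plain) and -0.90 (hyphen). Parental 3, with the lowest TFRC of its group, also had the lowest summed proliferation markers of its group (380.4 against 586.6 and 604), and the part of proliferation in the TFRC and IREB2 differences was not tested.

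SLC11A2 (chr12:50952263-51028886, minus strand), which carries ferrous iron across membranes, had parental FPKM values of 22.7, 22.6 and 22.7, the closest triplet of the 10 genes. In drug-resistant cells it was 30.3 in CR, 27.8 and 29.8 in PR and 27.8 in DR. The FPKM groups did not overlap, as for 25.8% of all genes tested in the higher direction, yet the log2 fold change of the counts was 0.23 (SE 0.16, adjusted p = 0.296, edgeR) and passed the threshold under none of the 16 alternatives. In PR cells alone its log2 fold change of the counts was 0.09 (SE 0.22, adjusted p = 0.793, edgeR). SLC11A2 and SLC40A1 thus both had higher FPKM in each drug-resistant library, with the test passed only for SLC40A1.

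FTH1 (chr11:61964285-61967634, minus strand), the ferritin heavy chain that oxidises iron, was at 1905, 1611 and 1734 FPKM in parental cells, 1303 in CR, 1737 and 2242 in PR and 1692 in DR cells. FTL (chr19:48965309-48966879, plus strand), the light chain that helps iron settle in the shell, was at 5414, 5844 and 2672 FPKM in parental cells, 3584 in CR, 3738 and 4950 in PR and 4049 in DR cells. Parental libraries held both the lowest (parental 3) and the highest (parental 2) FTL of all 10 libraries. The log2 fold changes were -0.14 for FTH1 (SE 0.21, adjusted p = 0.651, edgeR) and -0.29 for FTL (SE 0.27, adjusted p = 0.425, edgeR). The FTH1 difference changed sign under upper-quartile scaling (0.05), which moved the median of all genes from 0.06 to 0.23 on the log2 scale. FTL ranked 6th to 15th among all genes by FPKM and FTH1 15th to 52nd, and their FPKM ratio, light over heavy, was 1.54 to 3.63 in parental, 2.15 to 2.75 in drug-resistant and 3.47 in TS H460 cells. Rows for processed pseudogenes (20 of FTH1 and 10 of FTL) held 0.65% to 1.07% of the FTH1 count and at most 0.0575% of the FTL count. How reads shared with such copies were assigned is not given in the sources used here, so the 2 ferritin values carry that uncertainty. The FTH1 locus also overlaps BEST1 and LOC399900, with at most 678 counts against at least 131906 for FTH1.

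NCOA4 (chr10:46005088-46030623, minus strand), the receptor for lysosomal turnover of ferritin, had an FPKM of 39.1, 35.0 and 28.7 in parental cells, 39.7 in CR, 48.9 and 50.3 in PR and 51.1 in DR cells. The FPKM groups did not overlap, as for 25.8% of all genes tested in the higher direction, although CR lay just above parental 1. Its log2 fold change of the counts was 0.36 (SE 0.17, adjusted p = 0.132, edgeR), and the adjusted p was 0.02463 under upper-quartile scaling and 0.04956 with genes filtered on FPKM. Of 4 NCOA4 pseudogene rows, 3 had a count, at most 0.0921% of the NCOA4 count.

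IREB2 (chr15:78437431-78501453, plus strand), which encodes IRP2, had an FPKM of 15.7, 13.2 and 12.8 in parental cells, 5.91 in CR, 9.55 and 5.93 in PR and 6.90 in DR cells. All 4 drug-resistant libraries lay below all 3 parental ones, as for 13.6% of all genes tested, with PR 1 nearest to them. The means were 13.9 ± 1.57 (SD, n = 3) and 7.07 ± 1.72 (SD, n = 4), and the counts fell by 1.10 on the log2 scale (SE 0.20, adjusted p = 0.002735, edgeR). Across the 16 alternatives the log2 fold change was -1.24 to -0.90 and the call held in each. Within the forms of library name the log2 difference of FPKM + 1 was -0.52 (plain) and -0.98 (hyphen).

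HMOX1 (chr22:35381096-35394207, plus strand), the inducible heme oxygenase, had an FPKM of 32.1, 12.0 and 10.7 in parental cells, 6.91 in CR, 32.9 and 48.1 in PR and 11.4 in DR cells. The 2 PR libraries were the highest of the 7, with PR 1 only just above parental 1, and CR was the lowest. With the drugs pooled the log2 fold change of the counts was 0.27 (SE 0.58, adjusted p = 0.741, edgeR). Its sign changed without PR 2 (-0.21), without parental 3 (-0.01) and with 4 separate groups (-0.41). CR and DR have 1 library each, so a comparison between the drugs takes them to vary like the PR and parental libraries. The drugs were then compared with each other, a comparison chosen after its values were seen: PR exceeded the mean of CR and DR by 1.99 on the log2 scale (SE 0.51), with an adjusted p of 0.188 in edgeR. No gene of 21362 passed that comparison in edgeR, although 2612 had an unadjusted p under 0.05, limma called 81 of 12755, and edgeR called 423 of 21308 without parental 1. In this comparison the HMOX1 adjusted p was 0.01124 without parental 1, 0.0707 in limma and at most 0.9541 over the alternatives.

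ACSL4 (chrX:109641335-109733257, minus strand), the ligase that feeds polyunsaturated fatty acids into phospholipids, had an FPKM of 19.4, 24.2 and 18.4 in parental cells, 11.5 in CR, 19.2 and 11.5 in PR and 14.0 in DR cells. CR, PR 2 and DR lay below the parental libraries and PR 1 lay among them. The counts fell by 0.69 on the log2 scale (SE 0.20, adjusted p = 0.02562, edgeR). The call was kept in 7 of 16 alternatives: it was lost in edgeR without parental 2 (adjusted p = 0.08649), CR (0.06744), PR 2 (0.07412) or DR (0.05429), in edgeR with 4 separate groups (0.05281), upper-quartile scaling (0.06308) or the form of library name as a covariate (0.05196), and in limma with either pseudocount (0.06007 and 0.06132). The log2 difference of FPKM + 1 was 0.03 within the plain form, where PR 1 is the only drug-resistant library, and -0.93 within the hyphen form.

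GPX4 (chr19:1103994-1106779, plus strand), the peroxidase that reduces phospholipid hydroperoxides, had an FPKM of 72.8, 126 and 92.1 in parental cells, 141 in CR, 102 and 127 in PR and 115 in DR cells. CR and PR 2 exceeded every parental library, PR 2 narrowly, and the groups overlapped. Its log2 fold change of the counts was 0.22 (SE 0.21, adjusted p = 0.444, edgeR). The enzyme that promotes ferroptosis was therefore called lower, on a call that 9 of 16 alternatives removed. The enzyme that opposes it was not called.

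**Figure D2:**
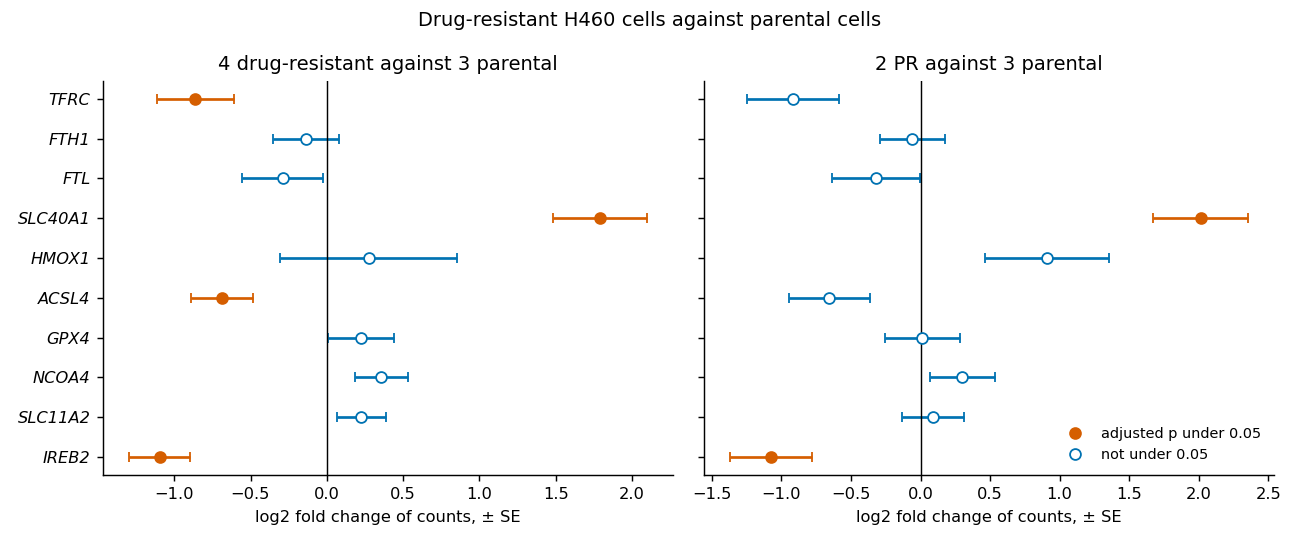
The log2 fold change of the read counts (horizontal axis) for each gene in the 4 drug-resistant against 3 parental libraries (left) and the 2 PR against 3 parental libraries (right), with bars of 1 SE from edgeR; filled points have an adjusted p under 0.05. SLC40A1 (1.79 and 2.01) and IREB2 (-1.10 and -1.07) are filled in both panels, which share the parental libraries and the PR libraries.

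PR cells, the only drug group with replicates, were also compared alone with parental cells, adjusted over 19430 genes. SLC40A1 (log2 fold change 2.01, SE 0.34, adjusted p = 0.004031, edgeR) and IREB2 (-1.07, SE 0.29, adjusted p = 0.02387, edgeR) were called, so 2 of 10 genes passed beside 28.1% of all genes tested (17.4% higher and 10.7% lower). SLC40A1 was called in each of 15 alternatives. IREB2 was lost without PR 2 (adjusted p = 0.2597, log2 fold change -0.75) or parental 2 (0.05357) in edgeR, and in limma with a pseudocount of 0.1 (0.05031). TFRC had a log2 fold change of -0.92 and did not pass (adjusted p = 0.0642, edgeR), and it passed without parental 3 (0.02699) and in DESeq2 (0.04446). HMOX1, with both PR libraries above every parental one, had a log2 fold change of 0.91 (SE 0.44, adjusted p = 0.152, edgeR). Without parental 1 it was 1.62 (adjusted p = 0.002771, edgeR), and limma with a pseudocount of 1 gave an adjusted p of 0.04193. The 2 PR libraries themselves were apart for IREB2, TFRC and ACSL4, PR 1 being nearer to the parental values each time.

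CR and DR cells have 1 library each, so their differences from the parental mean of log2(FPKM + 1) have no replicate check and no test. In CR cells 3 of the 10 genes were more than 2-fold apart, SLC40A1 higher (log2 difference 1.24) and HMOX1 (-1.11) and IREB2 (-1.11) lower. Of 13439 genes that reached an FPKM of 1 in 2 or more libraries, 5.49% were as far higher and 6.64% as far lower in CR. In DR cells SLC40A1 alone was more than 2-fold apart (1.07, beside 5.40% of genes as far higher). IREB2 missed that cut-off in DR with -0.91. Against parental 2 or parental 3 alone, no gene of the 10 was that far apart in DR cells, and against parental 1 alone 4 were. Against parental 3 alone, 1 gene was that far apart in CR cells. CR had the lowest TFRC, FTH1, HMOX1, ACSL4 and IREB2 of the 7 H460 libraries in 2D culture, and the highest GPX4 and SLC11A2. PR 2 was close to CR in TFRC (FPKM 52.6 against 51.8), ACSL4 (11.48 against 11.47), IREB2 (5.93 against 5.91) and SLC11A2 (29.8 against 30.3). In CR cells 4 genes lay above and 5 below the parental range, beside 65.4% of the 13439 genes outside it. The numbers were 4 and 1 in PR 1 (beside 64.3%), 6 and 3 in PR 2 (beside 68.6%), and 3 and 3 in DR (beside 62.4%).

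In spheroid culture no gene of the 10 passed the test. ACSL4 was higher in TS than in 2D cells of both lines, and the largest fold differences among the 10 genes were those of SLC40A1 and HMOX1 in A549 cells, where each group is 1 library. TS and 2D libraries of both lines were compared with the cell line as a covariate, to find genes that differ between the 2 cultures. Attachment and medium change together in this comparison and cannot be told apart. The count of 0 called of the 10 was in edgeR over 19941 genes, beside 0.191% of all genes tested (38 genes, with 1592 at an unadjusted p under 0.05). Of the 10 genes, 1 had an unadjusted p under 0.05, and DESeq2 called 1, in both cases ACSL4. This fit has 1 TS library per line, so the 2 lines stand in for replicates.

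ACSL4 had an FPKM of 45.0 in TS H460 cells against 18.4 to 24.2 in the 3 parental libraries, and of 16.2 in TS A549 cells against 8.45 in 2D A549 cells. Both TS libraries thus lay above all 2D libraries of their line. The log2 fold change of the counts over both lines was 1.10 (SE 0.21, unadjusted p = 0.0011, adjusted p = 0.125, edgeR), and the adjusted p was 1.438e-05 in DESeq2. DESeq2 made 8.05% false calls on data simulated for this comparison. The simulation gave all genes the same spread and the lines the same levels, so that rate is not known to hold here. The ACSL4 log2 fold change was 1.01 to 1.14 over 13 alternatives, DESeq2 being the only one in which it passed. Taken alone, TS H460 cells differed from the parental mean of log2(FPKM + 1) by 1.10 and TS A549 cells from 2D cells by 0.87. ACSL4 was the only one of the 10 genes more than 2-fold apart in TS H460 cells, beside 1.48% of genes as far higher. Against parental 2 alone no gene of the 10 was that far apart, and against parental 1 alone 2 were.

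SLC40A1 had an FPKM of 27.8 in TS A549 cells against 2.07 in 2D A549 cells, and of 1.15 in TS H460 cells against 1.03 to 2.32 in parental cells. The TS A549 value was the highest of the 10 libraries, while the TS H460 value lay within the parental range. On the scale of log2(FPKM + 1) the difference was 3.23 within A549 and -0.34 within H460 cells. The difference between the 2 effects, a test chosen after the values were seen in which the lone libraries are assumed to vary like the parental ones, was 4.42 on the log2 scale of the counts (SE 0.82, adjusted p = 0.0800, edgeR). In this test 84 of 19941 genes (0.421%) were called. SLC40A1 passed without parental 1 (0.00073), where 617 of 19789 genes were called, and without parental 2 (0.04257), where 129 were. Over both lines the log2 fold change was 1.37 (SE 1.20, adjusted p = 1, edgeR), and it rested on A549, being -0.63 without TS A549 and 3.79 without TS H460 (adjusted p = 0.03432). LYZ, the blood marker above an FPKM of 1, was at 37.75 together with the other 3 in that same TS A549 library, and its part in the result was not tested.

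HMOX1 had an FPKM of 71.1 in 2D A549 cells, the highest of the 10 libraries, against 11.3 in TS A549 cells. In TS H460 cells it was 12.0, within the parental range. The difference of log2(FPKM + 1) was -2.55 within A549 and -0.39 within H460 cells. Over both lines the log2 fold change of the counts was -1.31 (SE 0.62, adjusted p = 0.700, edgeR). The difference between the lines was -2.03 (SE 0.92, adjusted p = 0.647, edgeR), and it passed without parental 1 (-2.69, adjusted p = 0.02061), where the genes called rose from 84 to 617. In TS A549 cells 2 of the 10 genes, SLC40A1 and HMOX1, were more than 2-fold apart from 2D cells, beside 4.73% of genes as far higher and 2.49% as far lower.

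**Figure D3:**
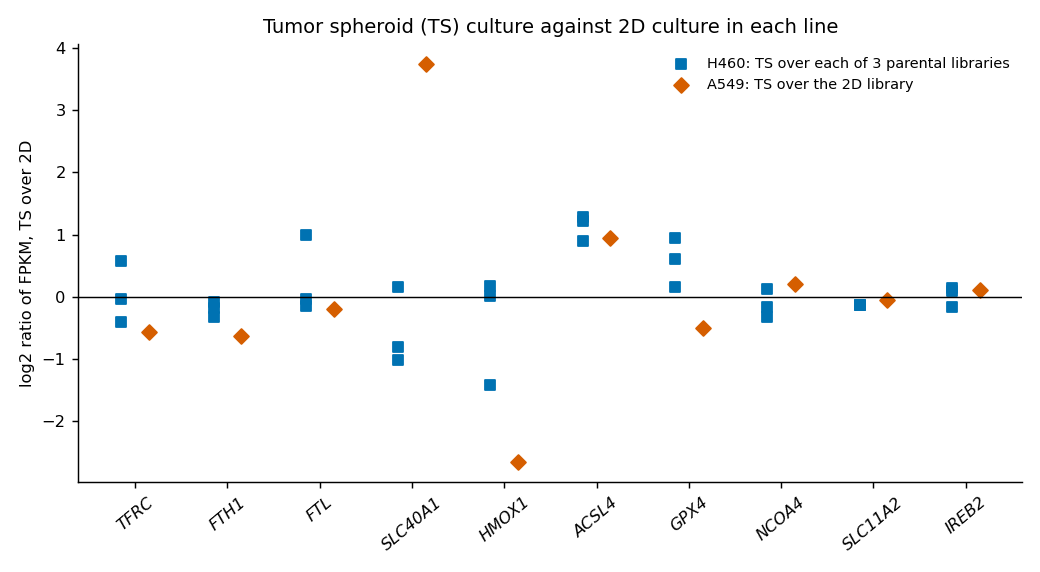
The log2 ratio of FPKM, TS over 2D culture (vertical axis), for each gene; blue squares set the TS H460 library against each of the 3 parental libraries, and orange diamonds set TS A549 against 2D A549 cells. ACSL4 lies above 0 at all 4 points, and SLC40A1 and HMOX1 have the points farthest from 0, both in A549 cells.

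The remaining genes had smaller differences between TS and 2D cells. FTH1 was 1525 FPKM in TS H460 cells, below the parental libraries, and 1977 in TS A549 against 3055 in 2D A549 cells, lower in both lines, with a log2 fold change of the counts of -0.34 (SE 0.23, adjusted p = 0.937, edgeR). FTL was 5298 in TS H460, 5342 in 2D A549 and 4651 in TS A549 cells. TFRC was 105 in TS H460 cells, within the parental range, and 47.3 in TS A549 against 69.9 in 2D A549 cells, where it was the lowest of the 10 libraries. GPX4 was 140 in TS H460 cells, above every parental library, and 123 in TS A549 against 175 in 2D A549 cells, so the differences had opposite signs in the 2 lines. NCOA4 was 31.4 in TS H460, 31.3 in 2D A549 and 36.2 in TS A549 cells. SLC11A2 was 20.8 in TS H460, 13.3 in 2D A549 and 12.8 in TS A549 cells, the 2 A549 libraries being the lowest of all 10. IREB2 was 14.1 in TS H460, 15.1 in 2D A549 and 16.2 in TS A549 cells, all within or above the parental range of 12.8 to 15.7. The low IREB2 values of drug-resistant cells had no counterpart in either TS library.

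In 2D culture A549 cells had more HMOX1 and less ACSL4 RNA than parental H460 cells, and their FTH1 and GPX4 lay above and their SLC11A2 below the parental FPKM range. In the same fit, 2D A549 exceeded parental H460 cells in HMOX1 by 1.95 on the log2 scale (SE 0.54, adjusted p = 0.0393, edgeR) and was lower in ACSL4 (-1.34, SE 0.36, adjusted p = 0.0362, edgeR), so that 2 of 10 genes were called beside 16.7% of all genes tested. FTH1 (0.78, adjusted p = 0.153), GPX4 (0.84, adjusted p = 0.162) and SLC11A2 (-0.79, adjusted p = 0.160) were not called in edgeR. This comparison was chosen after the values were seen and takes the single A549 library to vary like the parental ones. The HMOX1 call was lost without parental 2 (0.06654) or parental 3 (0.07677) and in limma (0.1577), and the ACSL4 call without parental 2 (0.09977) and in limma (0.08156).

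The spread over all 10 libraries ordered the genes by how much they varied. SLC40A1 had a highest over lowest FPKM of 27.1, HMOX1 of 10.3 and ACSL4 of 5.33. The others had ratios of 2.94 or less, down to 1.78 for NCOA4. Together the 10 genes held 1.11% to 2.03% of the TPM of a library, most of it ferritin. For each of the 10 genes, the gene with the highest Pearson's r of log2(FPKM + 1) over the 10 libraries was sought among 9777 genes that reached an FPKM of 1 in each library. It was AURKB, a mitotic kinase, for IREB2 (0.98), SRP72 for TFRC (0.98), SNHG32 for SLC11A2 (0.98, with TNFAIP3 next at 0.98) and IRF9 for SLC40A1 (0.98). The gene most like FTH1 was its pseudogene FTH1P8 (0.94), with which it may share reads. These values describe points that share lines, drugs and library forms.

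Among 83 other genes of iron handling and ferroptosis, in 6 lists, more were called lower than higher in drug-resistant cells. Of the ferroptosis defence list none was called higher (1 was under upper-quartile scaling, with the FPKM filter and in limma). Of the 83, 73 could be tested in that comparison, and 9 were called higher and 21 lower, 41.1% beside 33.8% of all genes, with a median log2 fold change of -0.19 beside 0.06. The 9 include TF and HEPH, which passed the filter on low counts only through the drug-resistant libraries. Of 20 genes in the defence list 8 were lower, beside 15.4% of all genes tested, and 6 to 8 were under the 16 alternatives. The list also holds KEAP1, which restrains NRF2, and SLC38A1, a glutamine importer, and neither is itself a defence gene. SLC38A1 is among the 8 lower genes (log2 fold change -1.11, SE 0.24, adjusted p = 0.005934, edgeR), so the 8 are not all defence genes. MBOAT1, an acyltransferase that builds phospholipids poor in polyunsaturated fat, had an FPKM of 1.41 to 1.72 in parental and 0.29 to 0.46 in drug-resistant cells (log2 fold change -2.18, SE 0.26, adjusted p = 0.0003794, edgeR). SCD, which makes monounsaturated fatty acids and is named for its size in PR cells (log2 fold change -1.31, SE 0.24, adjusted p = 0.005428, edgeR), had an FPKM of 119 to 147 in parental and 45.1 to 74.8 in drug-resistant cells (-1.24, SE 0.21, adjusted p = 0.001917, edgeR). The cystine importer did not pass, with SLC7A11 at -0.23 (SE 0.22, adjusted p = 0.448) and its partner SLC3A2 at 0.28 (SE 0.22, adjusted p = 0.352) in edgeR.

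Of 15 tested genes of phospholipid peroxidation 3 were higher and 3 lower, 40% beside 33.8% of all genes tested (18.4% higher and 15.4% lower). SAT1, a polyamine acetyltransferase whose activity favours lipid peroxidation, was between 43.2 and 65.0 FPKM in parental cells and rose to 191 in CR, 459 and 528 in PR and 229 in DR cells (log2 fold change 2.43, SE 0.30, adjusted p = 0.0004284, edgeR). PTGS2, a prostaglandin synthase often read as a marker of ferroptosis, had an FPKM of 0.22 to 0.65 in parental, 0.61 in CR, 5.19 and 5.18 in PR and 0.81 in DR cells, and its call (2.48, SE 0.75, adjusted p = 0.0275, edgeR) was kept in 9 of 16 alternatives. It lay apart from the parental libraries mainly in PR cells. Without PR 1 or PR 2, or without any 1 of the parental libraries, PTGS2 did not pass.

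Of 12 genes of iron uptake and transport 2 were higher and 3 lower, 41.7% beside 33.8% of all genes tested (18.4% higher and 15.4% lower). SLC39A8, an importer of zinc and iron, had an FPKM of 121 to 216 in parental and 51.1 to 54.3 in drug-resistant cells (log2 fold change -1.75, SE 0.20, adjusted p = 0.0003429, edgeR). STEAP1, a member of the STEAP family, fell by 1.79 on the log2 scale (SE 0.52, adjusted p = 0.0239, edgeR). Its call was lost without parental 1 or DR, with the form of library name as a covariate and in limma with a pseudocount of 1. TF, transferrin itself, was called higher at 3 to 7 counts in parental and 11 to 52 in drug-resistant cells (log2 fold change 2.51, SE 0.68, adjusted p = 0.0164, edgeR). That call was lost without parental 1 or parental 2. The parental counts of TF were under the filter minimum of 10, so it was tested only through the drug-resistant libraries. Its direction was set by that filter, and no conclusion is drawn from it.

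Of 5 tested genes of iron export and its control 2 were higher and 1 lower, 60% beside the same 33.8%, with few genes in the list. HEPH, a ferroxidase that works beside SLC40A1, had no count in the parental libraries, which allows up to 3 counts each, and 8 to 20 counts in drug-resistant ones. The 2 higher genes include HEPH, which was tested only through the drug-resistant libraries. Its direction was set by the filter on low counts, and no conclusion is drawn from it. CP, another ferroxidase, had an FPKM of 0.15 to 0.60 in parental, 0.41 in CR, 2.85 and 2.03 in PR and 0.69 in DR cells (log2 fold change 1.90, SE 0.66, adjusted p = 0.0480, edgeR), and its call was kept in 6 of 16 alternatives. ERFE, a hormone that lowers hepcidin, fell by 1.69 on the log2 scale (SE 0.55, adjusted p = 0.0370, edgeR), a call kept in 6 of 13 alternatives. These 3 genes were low throughout, under an FPKM of 3 in every 2D H460 library.

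In iron sensing, storage and cluster assembly 1 of 11 genes was higher and 4 lower (45.5%), and in heme turnover 1 of 10 was higher and 2 lower (30%), beside 18.4% of all genes tested higher and 15.4% lower. The higher heme gene was FLVCR2, a heme or choline transporter, at an FPKM of 0.07 to 0.19 in parental and 0.18 to 0.59 in drug-resistant cells (log2 fold change 1.59, SE 0.48, adjusted p = 0.0269, edgeR), called in 8 of 13 alternatives. The higher cluster gene was ISCU, the scaffold of iron-sulfur clusters, named after its value was seen, at 24.5 to 41.6 in parental and 83.8 to 95.7 in drug-resistant cells (1.22, SE 0.20, adjusted p = 0.001446, edgeR). CISD1, 1 of the 4 lower genes of that list and also named after its value was seen, had -1.01 (SE 0.26, adjusted p = 0.01307, edgeR). Its call was lost only without parental 2. The median log2 fold change was -0.48 in the cluster list and -0.30 in the heme list, beside 0.06 over all genes tested. In PR cells alone, 10 of 74 listed genes were higher and 15 lower, 33.8% beside 28.1% of all genes. They included ALOX15B, a lipoxygenase with 0 to 4 counts in parental and 18 and 31 in PR cells, which was lost without either PR library or parental 2. Among the 10 higher genes, ALOX15B, TF and HEPH were under the filter minimum of 10 in every parental library. They were tested only through the PR libraries, so their direction was set by the filter.

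**Figure D4:**
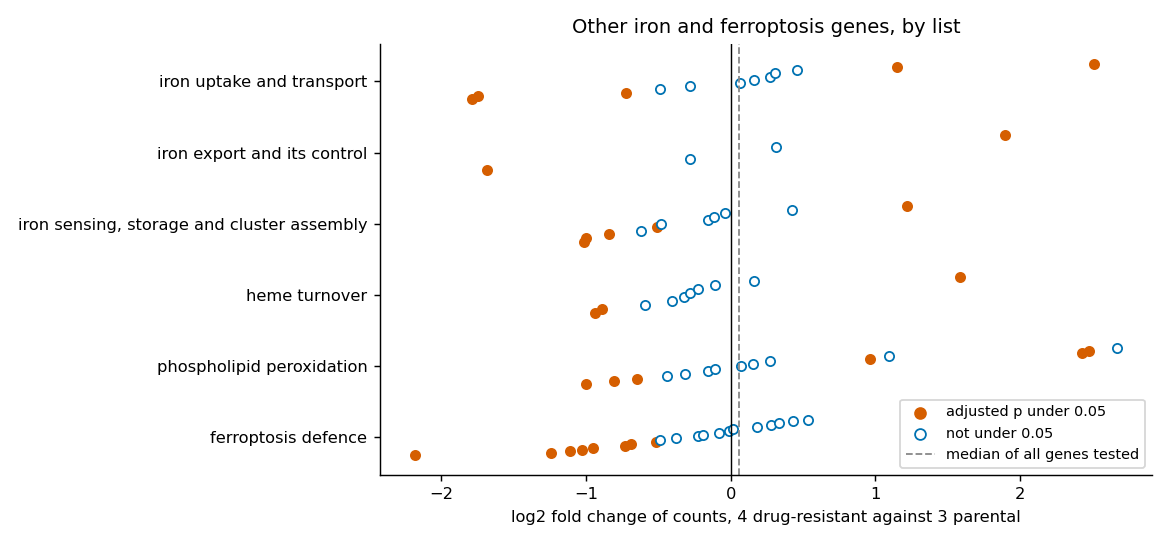
The log2 fold change of the read counts (horizontal axis), 4 drug-resistant against 3 parental libraries, for the tested genes of 6 lists (vertical axis); each point is 1 gene, filled where the adjusted p from edgeR is under 0.05, and the dashed line is the median of all genes tested (0.06). HEPH, with no count in parental cells, is left out, and no filled point of ferroptosis defence lies above 0 (1 gene would under upper-quartile scaling).

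In TS cells 2 of 74 listed genes were called, both higher, beside 0.191% of all genes tested. LCN2, a carrier of iron-binding siderophores, had no count in the 2D H460 libraries and 13 counts in TS H460 cells, and 17 counts in 2D A549 against 8196 in TS A549 cells. CP had an FPKM of 10.8 in TS H460 cells against 0.15 to 0.60 in parental cells, and of 157 in TS A549 against 9.64 in 2D A549 cells (log2 fold change 4.60, SE 0.56, adjusted p = 0.0397, edgeR). LCN2 was lost without TS A549, and CP without parental 2, parental 3 or TS H460 and with the FPKM filter.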

How the data were processed

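Gene values of 10 libraries were used as the authors deposited them. The read counts were deposited as raw whole numbers for each gene. The FPKM and TPM values were deposited by the authors as scaled to transcript length and to the depth of the library. The submitters' processing notes name bcl2fastq 1.8.4, Trimmomatic, HISAT2 2.1.0, StringTie 2.1.3b and GRCh38. The kit as named in the labels keeps no strand information, so overlapping genes cannot be told apart by strand. Counts of 59499787 to 89541774 per library leave counting error small for these genes, and the number of libraries limits the precision. Replicates were not identical (chi-square per gene 62.8 to 268.8).

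Groups with replicates were compared with edgeR 4.0.16 in R 4.3.3 (TMM scaling, filterByExpr with a minimum count of 10, robust quasi-likelihood test, Benjamini-Hochberg adjustment over all genes, threshold 0.05). The drug fit pools 3 drugs, so its spread includes differences between them. Single libraries were compared as log2(FPKM + 1), which understates changes of low genes, with a cut-off of 2-fold. The 10 genes, the 83 listed genes and the comparisons were chosen with earlier results of these data known, and 3 comparisons were added after seeing the data. Listed genes are named where called with a log2 fold change beyond 1, at most 10 by size in each of the drug, PR and TS comparisons, with SLC7A11 and SLC3A2 in any case. Alternatives were DESeq2 1.42.0, limma 3.58.1 on log2(FPKM + 1) and log2(FPKM + 0.1), RLE and upper-quartile scaling, no filter, a filter on FPKM, the form of library name, 4 groups, all 2D H460 libraries in 1 fit, a replicate block and each library left out. On simulated data edgeR recovered 85%, 79% and 70% of 2-fold changes in the drug, PR and TS designs over 18398, 19430 and 19941 genes, with 3.65%, 3.83% and 4.88% false calls, and DESeq2 recovered 75%, 69% and 62% with 8.56%, 8.09% and 8.05% false calls. The simulated counts had the same spread for all genes and no difference between the lines. These rates are therefore not known to hold for the real libraries. Gene positions came from RefSeq (GRCh38.p14) and UTRs from GENCODE 29, and tables and figures were made in Python 3.11.15 (pandas 2.3.3, matplotlib 3.10.9).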

Additional observations from a re-analysis of the deposited data

Results flagged for a closer look

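GPX4 was higher in spheroid than in 2D culture in H460 cells and lower in A549 cells, and this difference in sign is why it is listed here. Its FPKM was 140 in TS H460 cells against 72.8, 126 and 92.1 in the parental libraries, and 123 in TS A549 against 175 in 2D A549 cells. The difference of the 2 effects on the scale of log2(FPKM + 1), A549 minus H460, was -1.06. The test of that difference on the counts, chosen after the values were seen, gave -1.01 (SE 0.59, adjusted p = 0.837, edgeR), with adjusted p between 0.755 and 1.00 over the alternatives. None of the 10 genes had a drug-resistant library that stood apart from the other 3 beyond Dixon's critical value, the nearest being NCOA4 with a gap of 0.803 of its range.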

How the results depend on the processing

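SLC40A1 and IREB2 kept their drug-resistant calls in each of 16 alternatives. Members called in that comparison fell to 2 with the form of library name as a covariate and ranged from 2 to 4 with 1 library left out. Upper-quartile scaling changed all calls from 3382 higher and 2838 lower to 4193 and 2031, and in PR cells from 3381 and 2085 to 4185 and 1364. PR calls over all genes, 5466, were 2762 with the FPKM filter, 3026 and 2773 in limma with pseudocounts 1 and 0.1, and 1008 to 6591 with 1 library left out; members called were 1 in limma with 0.1 and 1 to 3. TS calls were 527 in DESeq2, 70 unfiltered, 19 with the FPKM filter, 19 in limma with 0.1 and 5 to 323 with 1 library left out, and members called were 1 in DESeq2 and 0 to 1. Members beyond 2-fold without a test were 1 in CR against parental 3, 4, 0 and 0 in DR against parental 1, 2 and 3 and 2 on the log2 CPM scale, and 2 and 0 in TS H460 against parental 1 and 2.

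None of the differences that changed sign had been called. For FTH1 it was 0.048 under upper-quartile scaling (drugs), and in PR 0.19 under that scaling, 0.12 with the FPKM filter, 0.18 and 0.18 in limma and -0.21 to 0.084 with 1 library left out. HMOX1 was -0.41 with 4 groups and -0.21 to 0.94 left out (drugs). In PR, GPX4 was -0.0016 unfiltered and -0.13 to 0.19 left out, and SLC7A11 0.025 under upper-quartile scaling, 0.019 and 0.019 in limma and -0.57 to 0.091 left out. Left-out ranges in TS were -0.52 to 0.014 for TFRC, -0.16 to 0.22 for FTL, -0.63 to 3.79 for SLC40A1, -0.46 to 0.55 for GPX4, -0.11 to 0.26 for NCOA4 and -0.75 to 0.18 for SLC7A11. The cause was not tested.

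Replicate numbers 1 and 2 are shared by PR and parental libraries, and nothing says that they mark pairs. Over 19430 genes the PR and parental differences between these numbers had a correlation of 0.149. With the replicate block 6648 genes were called against 6591 in the same 4 libraries without it, and TFRC passed in both (-1.13 and -1.11).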
